A study of Arabidopsis thaliana with 56 samples.

Results

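H3K27me3, histone H3 trimethylated at lysine 27, was mapped in Arabidopsis thaliana endosperm and leaf, and 1828 regions carried it in all 3 wild-type (WT) endosperm peak lists and in none of the 3 WT leaf lists. They were chosen in bins of 150 bp on chromosomes 1 to 5, with adjacent bins joined and runs of at least 300 bp retained. All regions covered in the 3 WT endosperm lists numbered 5251. The same bin rule gave 4095 regions common to both tissues and 1967 regions of leaf only. The WT lists chose these sets, so WT coverage of a set is a description and was given no test.

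H3K27me3 is written by Polycomb repressive complex PRC2 and marks genes held silent in plants and animals. In endosperm, the nutritive tissue of the seed that grows from a fertilised central cell with an extra maternal genome, the mark lies on developmental regulators as in leaf and also on imprinted genes, where it can differ between the maternal and paternal copies. CRWN1 and CRWN2 are long filamentous proteins that build the lamina of plant nuclei, the meshwork beneath the inner nuclear membrane, where silent chromatin tends to gather.

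H3K27me3 was read by CUT&RUN, in which a nuclease tethered to an antibody releases the bound chromatin, in 3 libraries each of WT endosperm, crwn1/2 endosperm, WT leaf and crwn1/2 leaf. Endosperm nuclei were sorted at 6C from pooled seeds, and leaf nuclei of 2C, 4C, 8C and 16C were sorted from the 5th leaves and combined, per the labels, which give no seed age for these libraries. Messenger RNA from 6C seed nuclei was measured at 6, 7 and 8 days after pollination (DAP), with 4 WT and 3 crwn1/2 libraries on the first day, 4 and 5 on the next, and 4 of crwn1/2 alone on the last. The label crwn1/2 names mutants of CRWN1 and CRWN2 with no further allele, and no other genotype or treatment was named. The 6C gate rests on DNA content alone, so nuclei of other seed tissues with that content were not separated by it.

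The libraries differed in ways that touch the results. Peak lists held 3961 to 5671 peaks, and the reads inside peaks came to 2.23, 2.27 and 2.87 M (M for mega) in the WT endosperm lists against 1.65, 0.519 and 1.16 M in the crwn1/2 endosperm lists. WT leaf lists held 3.31 to 3.81 M and crwn1/2 leaf lists 2.90 to 3.32 M. The 2nd crwn1/2 endosperm list was the shallowest and covered 16.7 Mb, against 22.1 and 22.04 Mb in the other crwn1/2 endosperm lists, and the 3rd crwn1/2 leaf list covered 21.3 Mb against 25.5 and 25.9 Mb. Messenger RNA libraries held 6986418 to 14359413 counts. In CPM, counts scaled to a common library total of 1e6, CRWN2 was at 69.9 ± 16.0 in WT (SD, n = 4) and 29.2 ± 6.92 in crwn1/2 (n = 3) at 6 DAP and at 41.3 ± 4.43 (n = 4) and 26.98 ± 7.62 (n = 5) at 7 DAP, without overlap, whereas CRWN1 was at 116 ± 30.9 and 81.2 ± 32.6 at 6 DAP and at 90.9 ± 16.7 and 89.7 ± 20.6 at 7 DAP, with overlapping groups. CRWN1 transcript level therefore does not check the label, and crwn1/2 stands for the labelled libraries throughout. Endosperm markers were present, with the ZHOUPI gene at 123 to 143 CPM in WT at 6 DAP, although IKU2 and MINI3 were at 0 in some libraries. The summed level of the seed coat markers was higher than that of the endosperm markers in every library. Single markers did not all follow the sums, and TT12 of the seed coat was below ZHOUPI in every library.

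The endosperm-only regions were short and scattered. They spanned 3.39 Mb, 2.85% of the bins, with a median length of 1350 bp, quartiles of 750 and 2250 bp and a longest region of 13800 bp. Common regions had a median of 2250 bp and leaf-only regions one of 900 bp. Only 100 endosperm-only regions reached 5 kb and 8 reached 10 kb, whereas 714 and 182 common regions did. At the lower limit, 158 regions were 300 bp long and a further 205 runs of a single bin were left out.

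**Figure D1:**
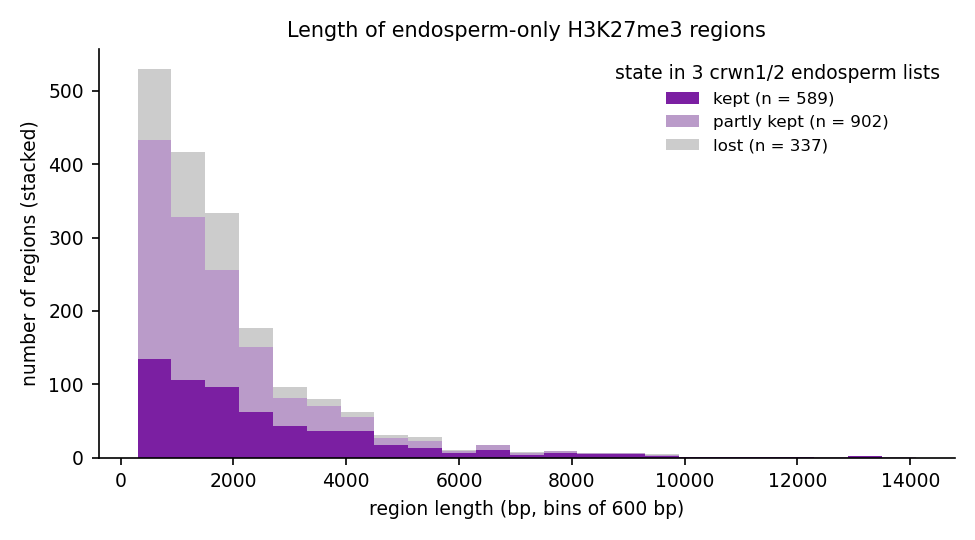
Length of the 1828 endosperm-only regions (x, in bp, bins of 600 bp) against the number of regions (y), stacked by state in the 3 crwn1/2 endosperm lists. Most regions lie below 2250 bp, and the kept share is larger for long regions, from 23.4% of regions of 300 to 600 bp to 58% of those of 5 kb or more.

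Chromosome 1 held the most endosperm-only regions, 558, or 18.3 per Mb. The other chromosomes held 313 (15.9 per Mb), 362 (15.5), 221 (11.9) and 374 (13.9) in order from 2 to 5. The pericentromeres, defined here as the long gene-poor run of 1 Mb windows on each chromosome, held 73 regions and 3.77% of the base pairs of the set, although they made up 15.1% of the bins. Common regions had 2.25% of their base pairs there and leaf-only regions 5.70%, both also below the share of the bins. Of 121 windows of 1 Mb, 5 held no endosperm-only region, the median window was covered to 2.42%, and the fullest, window 25 of chromosome 1, to 12.7%. Windows rich in endosperm-only regions were also rich in common regions (Spearman rho 0.777 over the 121 windows, which share gene density and are not independent).

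Endosperm-only regions often bordered H3K27me3 of leaf. In all, 893 regions touched a peak of at least 1 WT leaf list, 161 lay 150 to 900 bp away and 774 lay 1 kb or more away, of which 410 were 5 kb or more from any WT leaf peak. The median distance was 300 bp. Regions that touched a leaf peak had a median length of 1050 bp and those 1 kb or more away one of 1650 bp. The bordering regions share an edge with a leaf peak, and the distant ones are separate intervals.

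Protein-coding genes took up more of these regions than of the bins at large. Spans of annotated protein-coding genes held 62.4% of the base pairs of endosperm-only regions, 51.8% of common regions, 38.6% of leaf-only regions and 54.1% of all bins. A protein-coding gene was touched by 1351 regions, and 332 regions met no annotated gene of any kind. Of 27444 annotated protein-coding genes, 871 had at least 50% of their span in these regions and 324 had at least 95%. A region held none of those 871 genes in 1098 cases, 1 gene in 621 cases, 2 genes in 85, 3 in 18, 4 in 4 and 5 in 2. Besides protein-coding genes, 133 long non-coding RNA genes, 16 microRNA genes and 13 transfer RNA genes were covered to at least 50%.

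Genes of 9 lists were looked up in the sets, 140 in all, each counted where at least 50% of its span lay in a set. Over all protein-coding genes that share was 3.17% for endosperm-only and 14.6% for common regions, and each list is to be read beside these shares. Of 15 seed maturation and storage genes, 14 were in common regions, among them LEC2, FUS3 and ABI3, regulators of embryo maturation, and none was in an endosperm-only region. Of 18 leaf and shoot development genes, 13 were common and none was endosperm-only. Among 12 paternally expressed imprinted genes 10 were common and 1, the type I MADS-box gene AGL92, was endosperm-only, and of 10 maternally expressed genes 3 were common and none endosperm-only. AGL92 was also the only 1 of 20 type I MADS-box genes in the endosperm-only set, with 6 in the common set. Of 17 type II MADS-box genes 9 were common and SVP, a repressor of flowering, was endosperm-only. Of 14 auxin synthesis genes 8 were common and TAR2, a tryptophan aminotransferase of auxin synthesis, was endosperm-only.

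In the photosynthesis list the endosperm-only genes outnumbered the common ones. Of 22 nuclear photosynthesis genes none was in a common region and 4 were in endosperm-only regions: LHCB5, an antenna protein of photosystem II, and RBCS1B, RBCS2B and RBCS3B, which encode small subunits of the carbon-fixing enzyme Rubisco. The RBCS genes share a single region, so they are not separate cases. Of 12 epidermis, stomata and trichome genes, 5 were common and 2 were endosperm-only, TRY and CPC, which encode single-repeat MYB proteins that restrain trichome formation and promote root hairs. No test was made on these counts, and the lists were drawn up with earlier results of these data known.

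The first question put to the mutant was how much of these regions was still covered in crwn1/2 endosperm. The 3 crwn1/2 endosperm lists covered 60.8%, 52.2% and 62.4% of the base pairs, a mean of 58.5% ± 5.48 (SD, n = 3). In the same 3 lists the common regions were covered to 86.1%, 79.3% and 90.7%, a mean of 85.4% ± 5.73. Endosperm-only regions were thus lower than common regions in each list, by 26.9 points on average (exact sign-flip test over 3 lists, two-sided p = 0.25, the smallest p that 3 lists allow). Leaf-only regions were covered to 85.4% ± 3.47 in the crwn1/2 lists of their own tissue, and endosperm-only regions were 26.99 points below that in theirs, with no overlap between the 3 lists of each (exact permutation test, two-sided p = 0.1, the smallest p for 3 against 3).

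The choice of regions fixed WT coverage at 100%, so a WT list that took no part in the choice was set beside crwn1/2. When each WT endosperm list was left out in turn and the regions were chosen on the other WT lists, the left-out list covered 83.1%, 74.5% and 84.8% of them, a mean of 80.8% ± 5.54. The crwn1/2 endosperm lists covered 44.0% to 58.4% of the same regions, with a mean of 53.3%, below the left-out WT list in 9 of 9 pairings and by 27.5 points on average. For common regions the left-out WT lists covered 94.1% ± 2.94 and the crwn1/2 lists 83.2%, again below in 9 of 9 pairings, by 10.9 points. The crwn1/2 endosperm lists also held fewer reads in peaks, and the part of sequencing depth in these differences was not tested.

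In crwn1/2 leaf most of the base pairs of these regions lay outside peaks as well. Coverage was 13.1%, 13.3% and 3.08% in the 3 crwn1/2 leaf lists, a mean of 9.82% ± 5.84 (SD, n = 3). Over all bins outside WT leaf peaks the same lists covered 3.14%, 2.77% and 0.519%. The mean was 48.6 points below crwn1/2 endosperm with no overlap between the tissues (exact permutation test, two-sided p = 0.1, the smallest p for 3 against 3). A left-out WT leaf list covered 7.31%, 5.36% and 5.74% of the regions chosen without it. Lists 1 and 2 of crwn1/2 leaf covered 14.7% to 17.1% of those regions, above the left-out WT list, and list 3 covered 4.56% to 4.65%, below it, so the crwn1/2 leaf lists did not move one way. The reverse case was of like size: leaf-only regions were covered to 10.2% ± 4.08 in crwn1/2 endosperm, 0.391 points above the value for endosperm-only regions in crwn1/2 leaf, a difference smaller than the spread of the lists (exact permutation test, two-sided p = 1).

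**Figure D2:**
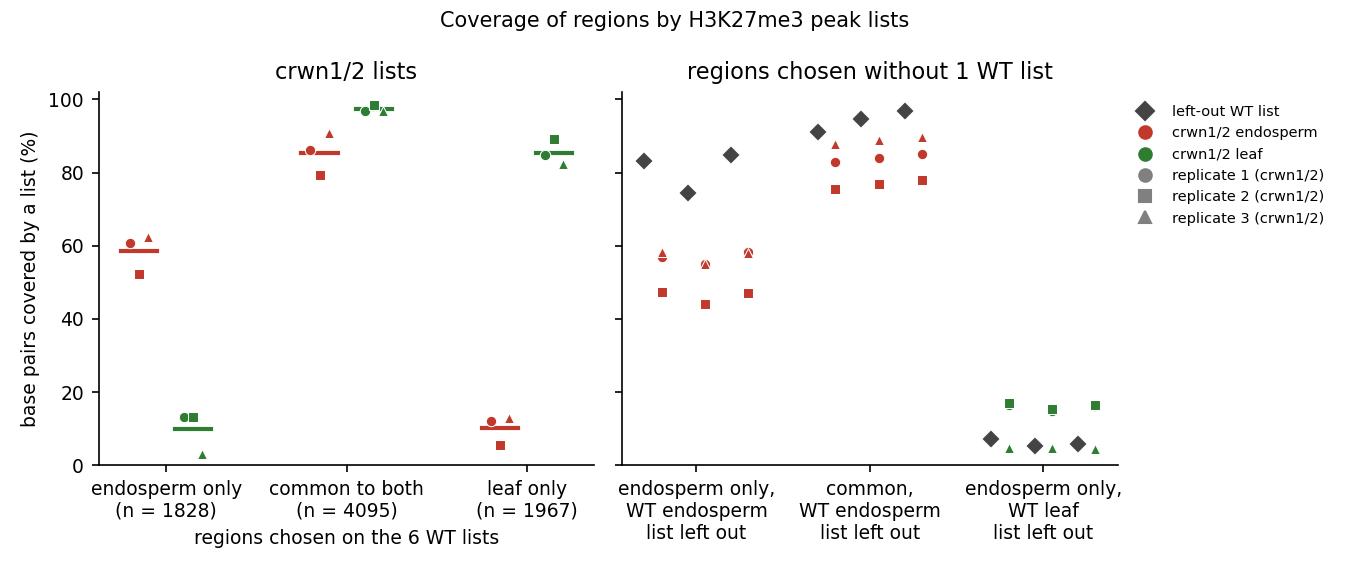
Share of base pairs covered (y, in %) in each crwn1/2 list for endosperm-only, common and leaf-only regions, with each point a list and each bar the mean of 3 lists, and, in the right panel, coverage when a WT list is left out of the choice, for that WT list and the crwn1/2 lists of its tissue. Endosperm-only regions sit at 52.2% to 62.4% in crwn1/2 endosperm and at 3.08% to 13.3% in crwn1/2 leaf, and common regions at 79.3% or more in both tissues.

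Counted region by region, the crwn1/2 endosperm lists divided the set. A region was called kept where at least 50% of it was covered in all 3 crwn1/2 endosperm lists, lost where that held in none, and partly kept otherwise. Of the 1828 regions, 589 (32.2%) were kept, 902 (49.3%) partly kept and 337 (18.4%) lost. Over all 5251 regions of the WT endosperm lists, 56.7% were kept and 7.9% lost. Common regions alone were kept in 67.5% and lost in 3.27%, and leaf-only regions, judged in the crwn1/2 leaf lists, were kept in 71% and lost in 3.36%. At the extremes, 187 regions were covered from end to end in all 3 crwn1/2 endosperm lists and 249 had no covered bin in any.

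More of the partly kept class rested on the shallowest list alone than on either other list alone. The 3 lists reached 50% coverage in 1132, 900 and 1149 regions, and 293 regions were below 50% in the 2nd list only, against 115 in the 1st only and 104 in the 3rd only. By its definition the partly kept class shrinks when any list is left out. Without the 2nd list 882 regions were kept, 429 lost and 517 partly kept. Without the 1st list these counts were 704, 483 and 641, and without the 3rd 693, 489 and 646. Without the 2nd WT endosperm list in the choice of regions 572 were lost.

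Distance from leaf H3K27me3 went with the state. Regions that touched a WT leaf peak were covered to 69.6%, 60.9% and 70.9% in the crwn1/2 endosperm lists, a mean of 67.1% ± 5.45, and 11.98% of them were lost. Those 1 kb or more away were covered to 52.5%, 45.8% and 55.1%, a mean of 51.1% ± 4.79, and 25.7% were lost. At 5 kb or more the mean was 47.2% ± 3.25 and 30.5% were lost. In every list the touching regions were higher than those 1 kb or more away. A similar order held in crwn1/2 leaf, where touching regions were covered to 15.3% ± 9.53 and those 1 kb or more away to 4.36% ± 2.12.

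**Figure D3:**
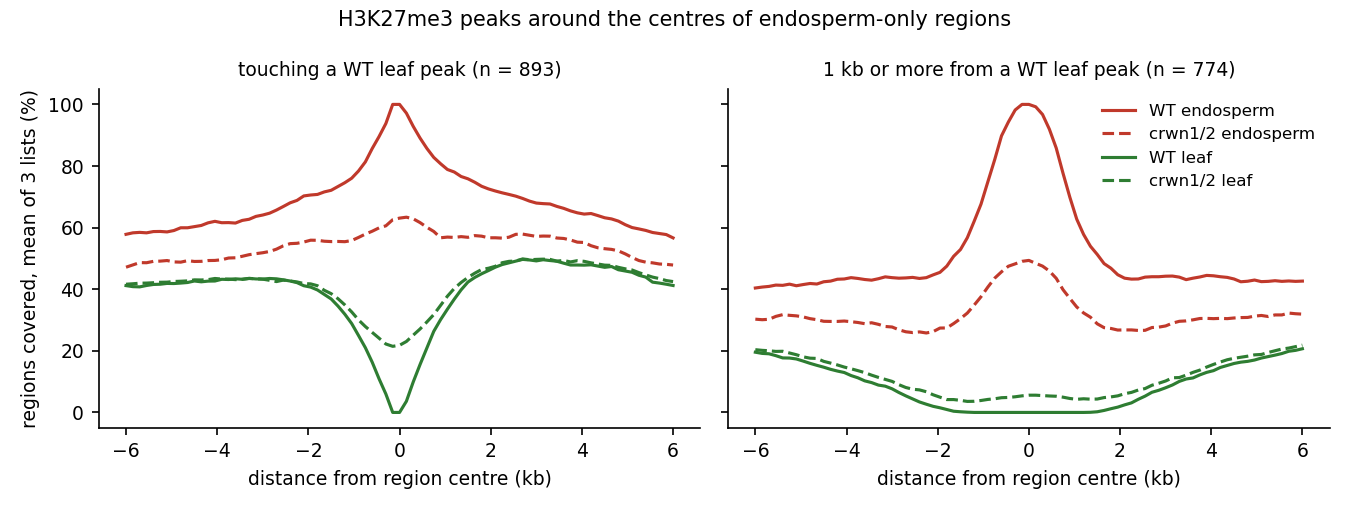
Share of regions covered (y, in %, mean of 3 lists per group) by distance from the region centre (x, in kb), for regions touching a WT leaf peak and for those 1 kb or more away. At the centre the crwn1/2 endosperm lists cover 63.1% of touching regions and 49.4% of distant ones, and the crwn1/2 leaf lists 21.8% and 5.6%, while WT values there are fixed by the choice of regions.

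Long regions were kept more often than short ones. Coverage in crwn1/2 endosperm was 51.8% ± 10.1 for the 415 regions of 300 to 600 bp, 50.7% ± 10.3 for 750 to 1350 bp, 52.7% ± 7.43 for 1500 to 2850 bp, 64.2% ± 3.09 for 3000 to 4950 bp and 68.7% ± 1.22 for the 100 regions of 5 kb or more. The kept share was 23.4% in the shortest class, 50.2% from 3000 to 4950 bp and 58% at 5 kb or more, where 11 of 100 regions were lost. In crwn1/2 leaf the order was opposite, from 24.6% ± 13.7 in the shortest class to 3.53% ± 1.49 in the longest. The 73 pericentromeric regions were covered to 22.6%, 36.5% and 35.3% in crwn1/2 endosperm and 46.6% of them were lost, whereas the 1755 regions on the arms were covered to 59.5% ± 5.83 and 17.3% were lost.

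**Figure D4:**
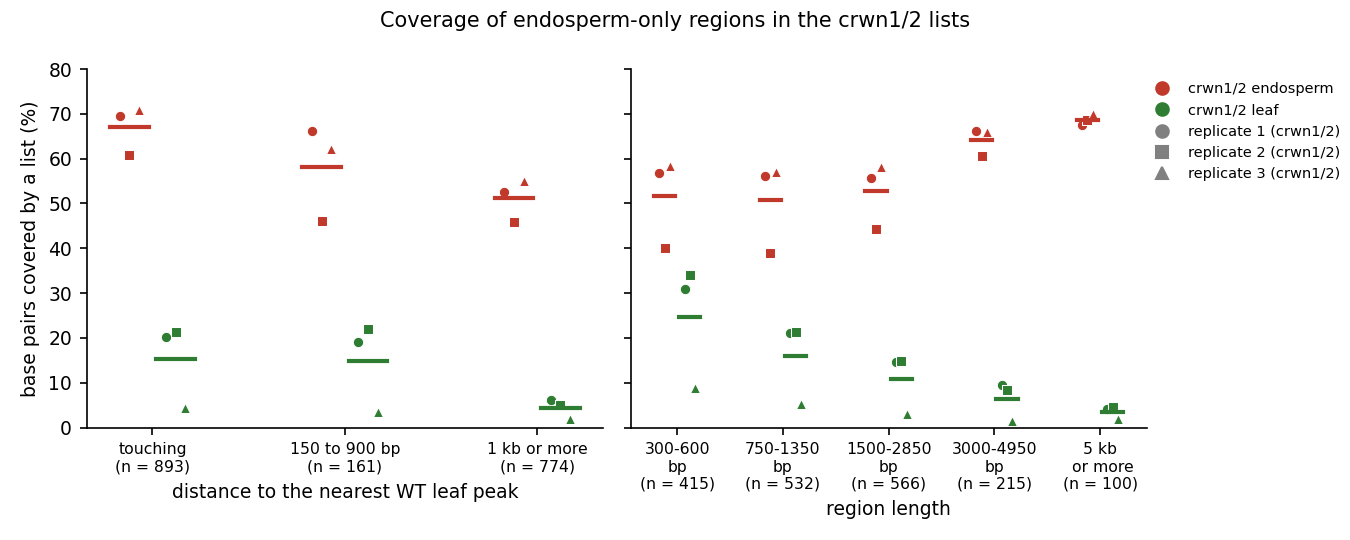
Share of base pairs of endosperm-only regions covered in each crwn1/2 list (y, in %), by distance to the nearest WT leaf peak and by region length (x), with points for lists and bars for the mean of 3. Endosperm coverage declines from 67.1% for touching regions to 51.1% at 1 kb or more and is highest, at 68.7%, for regions of 5 kb or more, whose leaf coverage is lowest at 3.53%.

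Members just outside the rule showed where the threshold lies. The 2691 intervals found in 2 of the 3 WT endosperm lists and no leaf list were covered to 39.7%, 20.4% and 35.3% in the crwn1/2 endosperm lists. The 947 intervals in all 3 WT endosperm lists and 1 of the 3 WT leaf lists were covered to 75.2%, 60.2% and 77.9%. The shortest members, of 300 bp, were covered to 61.4%, 42.1% and 63.0%.

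Coverage in crwn1/2 leaf was rare when all 3 lists had to show it. The choice of regions left no WT leaf coverage in them, so these counts alone do not measure a gain. A left-out WT leaf list covered 5.36% to 7.31% of the base pairs, and no count at 50% is given for it. At least 50% coverage was reached in 361, 379 and 92 regions in the 3 crwn1/2 leaf lists, in 540 regions in any list and in 33 in all 3, while 1061 regions had no covered bin in any. By bins, 1.06% of member bins lay in all 3 crwn1/2 leaf lists and 19.9% in any, beside 0.147% and 4.73% of all bins outside WT leaf peaks. Of the 33 regions, 26 touched a WT leaf peak. Leaving out the 3rd crwn1/2 leaf list raised the 33 to 229, leaving out the 1st raised it to 51, and leaving out a WT leaf list raised it to 72, 61 and 71 for lists 1, 2 and 3. Regions that reached 50% in no crwn1/2 leaf list were covered to 56.6% ± 3.87 in crwn1/2 endosperm, and those that did so in 2 lists to 69.5% ± 16.6.

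The longest region in all 3 crwn1/2 leaf lists was chr3:21604801-21610200 (TAIR10), 5400 bp at AT3G58410, which was covered to 100%, 86.1% and 55.6% in leaf and to 100%, 83.3% and 88.9% in endosperm. The next, chr1:24835951-24838500, held SUC7, a sucrose transporter gene, and was covered to 100%, 100% and 52.9% in leaf. In endosperm its coverage was 17.6%, 58.8% and 76.5%. The region chr2:2151151-2152800 lay 89250 bp from any WT leaf peak and still had 54.5%, 100% and 81.8% coverage in crwn1/2 leaf, beside 0%, 63.6% and 0% in crwn1/2 endosperm.

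The same rule applied to the crwn1/2 lists gave a smaller set. It held 870 regions and 1.22 Mb, with a median of 1200 bp, and without the shallow 2nd crwn1/2 endosperm list it held 1450 regions and 2.33 Mb. The sets shared 0.855 Mb, which was 25.2% of the WT set and 69.9% of the crwn1/2 set, and 509 of the WT regions (27.8%) were touched. Base pairs in the crwn1/2 set alone were covered to 65.9%, 61.4% and 65.7% by the WT endosperm lists, and 40.7% of them lay in at least 1 WT leaf list, so much of what was new to the set had H3K27me3 in WT too. With each crwn1/2 endosperm list left out in turn, the left-out crwn1/2 endosperm list covered 76.2%, 52.7% and 77.6% of the regions chosen from the other crwn1/2 lists, and the WT endosperm lists covered 71.2% to 87.2%.

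Within a list, the peaks that lay mostly in endosperm-only regions were weaker than those mostly in common regions. The authors' log2 enrichment of a peak over control had a median of 0.665 to 1.08 over the 6 endosperm lists for the first kind and of 0.876 to 1.37 for the second. The difference ran from 0.211 to 0.325 log2 units lower, in all 3 WT and all 3 crwn1/2 endosperm lists.

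The 12 longest regions, a tie at 9750 bp included, comprised 8 kept, 3 partly kept and 1 lost. The longest, chr1:3979801-3993600 (13800 bp), holds 5 protein-coding genes, among them ADT1, an arogenate dehydratase of phenylalanine synthesis. It was covered to 35.9%, 65.2% and 20.7% in crwn1/2 endosperm and to 0% in every crwn1/2 leaf list. The next, chr1:25457101-25470150, was covered to 78.2%, 80.5% and 67.8%. The region chr1:7902451-7915350 over UGT85A1, a glucosyltransferase gene, was covered to 84.9%, 77.9% and 94.2%. The region chr1:24992401-25003950 over SVL2 and the immune receptor-like kinase gene SNC4 was covered to 100%, 94.8% and 100%, and chr2:16284751-16296450 over the aquaporin gene PIP2E to 88.5%, 100% and 100%. Over IDD11, a zinc finger transcription factor gene, chr3:4539301-4551600 was covered to 42.7%, 50% and 73.2%, and over the expansin gene EXPA8, chr2:16945951-16956150 was covered to 63.2%, 64.7% and 64.7%. The pair RBP47C and RBP47C', whose products bind RNA, lies in chr1:17425201-17435850, which had 45.1% coverage in the 1st crwn1/2 leaf list and 0% in the others. The remaining kept regions of this length held CIPK1, a protein kinase gene (chr3:5989651-5999400), and the cytochrome P450 genes CYP706A4 and CYP706A5 (chr4:7303351-7313100), while chr4:7934101-7943850 over UNE16 was partly kept.

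The longest lost region was chr1:2723701-2733450, over ATRX, a chromatin remodeller gene, with 0%, 49.2% and 0% coverage in crwn1/2 endosperm, just under the threshold in the 2nd list. The next, chr5:8257351-8264550 (7200 bp), holds GMI1, a gene of DNA repair, and MEB2, an endoplasmic reticulum body gene. It lay 17100 bp from the nearest WT leaf peak and was covered to 0%, 2.08% and 0%. The others were chr5:23222851-23229900 at AT5G57340 (0%, 0% and 27.7%), chr3:19181851-19188300 at AT3G51710 to AT3G51730 (0%, 0% and 13.95%) and chr1:20322451-20328150 at AT1G54440 (47.4%, 0% and 0%).

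Regions of the listed genes behaved differently from one another. The Rubisco cluster region chr5:15377101-15385800 (8700 bp) was kept, with 100%, 79.3% and 93.1% in crwn1/2 endosperm and 0% in crwn1/2 leaf. The LHCB5 region chr4:6407551-6410100 was covered to 100% in all 3 crwn1/2 endosperm lists, as was the AGL92 region chr1:11322901-11324400, which also had 100% in the 1st crwn1/2 leaf list and 0% in the others. The SVP region chr2:9579451-9584550 (5100 bp) had 94.1%, 100% and 100%. The TAR2 region chr4:12724351-12731400 had 55.3%, 89.4% and 83.0%. In contrast, the CPC region chr2:19049551-19051350 and the TRY region chr5:21582451-21583950 had 0% in every crwn1/2 list of either tissue.

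Of the 16 microRNA genes, 9 lay in kept, 4 in partly kept and 3 in lost regions, beside 32.2%, 49.3% and 18.4% of all endosperm-only regions in these states. The 9 lay in 7 regions, since MIR5023, MIR2934 and MIR782 share one. MIR172a, whose microRNA targets AP2-type genes, lies in chr2:11941051-11945850, covered to 71.9%, 75% and 100%. MIR156d, whose microRNA targets SPL genes, lies in chr5:3454501-3458100, covered to 87.5% in each list. MIR169a, of the family that targets NF-YA genes, was in the kept region chr3:4358101-4362300. MIR167d, of the family that targets auxin response factors, was partly kept with 0%, 45.5% and 100%, and MIR168b, whose microRNA targets AGO1, with 87.5%, 0% and 87.5%. The 3 lost were MIR414, MIR5020b and MIR5020c.

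Transcript levels were then read for genes with at least 50% of their span in an endosperm-only region. Per kb of gene span, the median level of 853 such protein-coding genes with counts was 2.06 ± 0.0996 CPM in WT at 6 DAP (SD, n = 4) and 2.41 ± 0.21 at 7 DAP (n = 4). It was 2.34 ± 0.111, 2.42 ± 0.0791 and 2.69 ± 0.178 CPM per kb in crwn1/2 at 6, 7 and 8 DAP (n = 3, 5 and 4). Genes in common regions had far lower medians, 0.237 and 0.414 CPM per kb in WT at 6 and 7 DAP, and all 26712 protein-coding genes had 3.91 and 3.67. In WT at 6 DAP 59.5% of the endosperm-only genes were at 1 CPM per kb or more, against 24.8% of common genes and 65.4% of all. In bulk nuclei, fewer cells of a type and less RNA per cell cannot be told apart.

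Genes of lost regions had the highest levels already in WT. Their median was 5.05 ± 0.288 CPM per kb in WT at 6 DAP, beside 2.50 ± 0.213 in partly kept and 1.17 ± 0.0861 in kept regions. In crwn1/2 at 6 DAP the lost-region median was 6.84 ± 0.751, with 6.40 to 7.71 in the crwn1/2 libraries and 4.65 to 5.32 in the WT libraries and so no overlap, while at 7 DAP 5.06 to 6.41 in crwn1/2 overlapped 4.08 to 5.19 in WT. Over all protein-coding genes the median was 3.91 ± 0.117 in WT and 4.27 ± 0.117 in crwn1/2 at 6 DAP. These libraries did not overlap either, at 3.81 to 4.07 and 4.19 to 4.40, nor did they at 7 DAP, at 3.56 to 3.77 and 4.03 to 4.33. For all endosperm-only genes the medians at 6 DAP were 1.99 to 2.21 in WT and 2.24 to 2.46 in crwn1/2, again without overlap. Within that set, the medians of kept and of partly kept regions overlapped at 6 DAP.

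**Figure D5:**
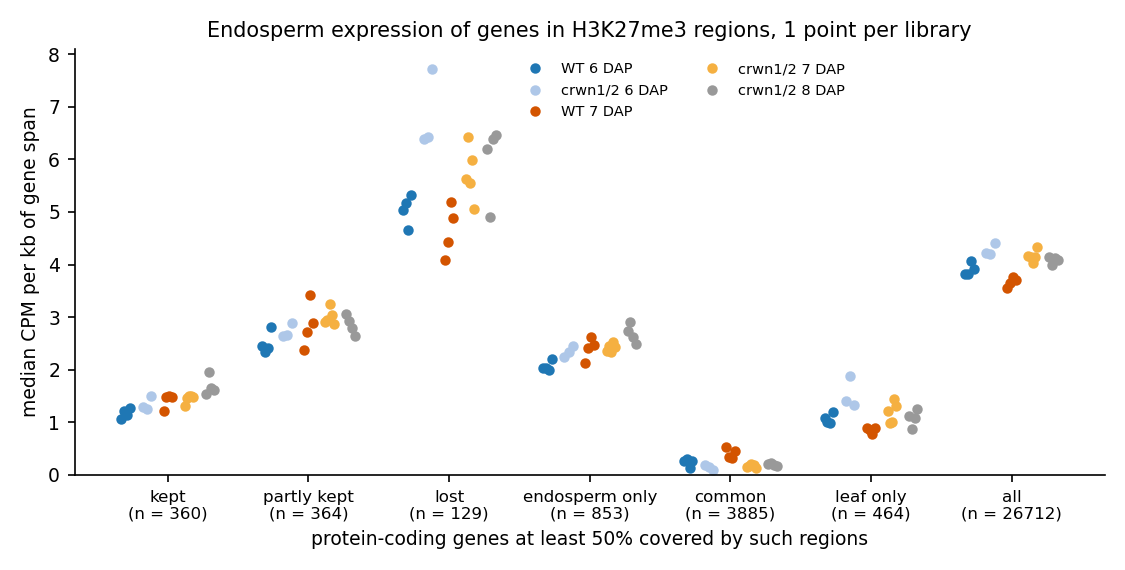
Median transcript level per library (y, CPM per kb of gene span, linear axis) of protein-coding genes in kept, partly kept and lost endosperm-only regions, in all endosperm-only, common and leaf-only regions and among all genes (x), with each point a library coloured by genotype and day. Genes of lost regions lie between 4.08 and 7.71 in the libraries at 6 and 7 DAP, genes of kept regions below 2, and genes of common regions below 1.

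Changes of these genes in crwn1/2 were about as frequent as among all genes, or less so. With edgeR's quasi-likelihood test and Benjamini-Hochberg adjustment over all features, 671 of the 926 genes with a row in the counts were tested. At 6 DAP 49 rose and 36 fell, 7.30% and 5.37% of those tested, beside 6.8% and 6.15% of all 22161 genes tested. At 7 DAP 70 rose and 52 fell, 10.4% and 7.75%, beside 11.6% and 10.5% of all genes. The median log2 difference of the set was 0.06 at 6 DAP and 0.00 at 7 DAP, and that of all genes was 0.02 and 0.06. Of 108 tested genes in lost regions 9 rose and 1 fell at 6 DAP, and 17 rose and 5 fell at 7 DAP; of 273 in kept regions 23 rose and 18 fell, then 23 rose and 25 fell. Their median log2 differences were 0.10 and 0.19 in lost and 0.02 and -0.08 in kept regions, and no test of the difference between states was made. Without the 2nd crwn1/2 library at 6 DAP 19 genes fell there instead of 36.

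The seed coat markers moved with these comparisons. Their summed level over 5 of 5 markers ran from 895 to 1045 CPM over the WT and from 1736 to 2149 CPM over the crwn1/2 libraries of 6 DAP, and 553 to 850 against 727 to 1152 CPM at 7 DAP. Endosperm markers summed to 148 to 167 against 113 to 154 CPM at 6 DAP and to 156 to 275 against 97.1 to 167 CPM at 7 DAP, and embryo markers to 54.2 to 83.3 against 70.7 to 96.3 CPM and to 81.6 to 109 against 69.1 to 116 CPM. The endosperm markers IKU2 and MINI3 and the embryo markers DRN and DRNL were at 0 in some libraries. The markers of a sum did not all move together. At 6 DAP ZHOUPI was at 123 to 143 CPM in WT and 78.2 to 94.9 CPM in crwn1/2. PHE1, at 0.259 to 2.72 and 4.885 to 38.1 CPM, and AGL62, at 2.29 to 3.37 and 4.00 to 15.1 CPM, were higher in crwn1/2. The other endosperm markers overlapped between genotypes. At 7 DAP BAN of the seed coat was at 140 to 184 CPM in WT and 314 to 602.5 CPM in crwn1/2. TT10 overlapped, at 389 to 626 and 371.5 to 552 CPM. The part of tissue makeup in the gene results was not tested. At 7 DAP the results also moved with the share of reads outside annotated features. When it entered the fit as a further term, chosen after seeing the data, 11 endosperm-only genes rose and 10 fell. The share of all genes called in that fit is not given here, so these counts do not show a shift particular to these genes.

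The genes of lost regions include GMI1 and CPC. GMI1 was at 13.5, 9.24, 5.71 and 12.3 CPM in WT and at 33.5, 38.3 and 36.0 CPM in crwn1/2 at 6 DAP. All 3 crwn1/2 libraries were above all 4 WT libraries, by 1.81 log2 units (SE 0.22, edgeR adjusted p = 5.47e-06). At 7 DAP it was at 17.1, 22.2, 19.4 and 19.9 CPM in WT and at 27.4, 37.0, 25.1, 24.7 and 32.4 CPM in crwn1/2, again without overlap, 0.58 log2 units higher (SE 0.193, edgeR adjusted p = 0.0316). That call at 7 DAP ended in 5 of the 9 fits that left out a library, WT 1, 3 or 4 or crwn1/2 2 or 5 (edgeR adjusted p up to 0.105).

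CPC was at 12.8, 11.4, 14.8 and 16.2 CPM in WT and at 35.1, 48.8 and 26.6 CPM in crwn1/2 at 6 DAP, with no overlap (log2 difference 1.42, SE 0.266, edgeR adjusted p = 0.000883). At 7 DAP the WT libraries were at 8.10 to 16.9 CPM and the crwn1/2 libraries at 15.4 to 24.7 CPM, which overlapped. The log2 difference of 0.72 (edgeR adjusted p = 0.0327) lost its call without WT 2, 3 or 4 or crwn1/2 1 or 2, with an edgeR adjusted p of up to 0.113. TRY, the other single-repeat MYB gene, was lower on average, by 0.76 and 0.84 log2 units at 6 and 7 DAP, and did not pass the test (edgeR adjusted p = 0.517 and 0.33). AT5G11410, whose region chr5:3637651-3639600 had no covered bin in any crwn1/2 endosperm list, was at 0.481, 0.365, 0 and 0.113 CPM in WT and at 1.17, 3.77 and 5.15 CPM in crwn1/2 at 6 DAP. It rose by 3.74 log2 units (SE 0.867, edgeR adjusted p = 0.00582), which rests on 8 counts in all WT libraries together. At 7 DAP it rose by 2.79 log2 units (edgeR adjusted p = 0.00993), with 1 crwn1/2 library, the 5th, at 0.135 CPM, below all WT libraries.

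The other called genes of the longest lost regions differed by less than 1 log2 unit. ATRX was at 63.1 ± 4.81 (n = 4) and 56.1 ± 5.21 CPM (n = 3) in WT and crwn1/2 at 6 DAP (log2 difference -0.17, edgeR adjusted p = 0.542) and at 50.9 ± 12.4 and 68.6 ± 5.90 CPM at 7 DAP (0.43, edgeR adjusted p = 0.0348). The latter call ended without WT 2 or 4 or crwn1/2 2, 4 or 5, with an edgeR adjusted p of up to 0.148. AT1G54440 spanned 29.3 to 34.2 CPM in the WT and 47.0 to 54.9 CPM in the crwn1/2 libraries of 6 DAP, with no overlap (log2 difference 0.72, SE 0.195, edgeR adjusted p = 0.0156, or 0.0543 without the 3rd crwn1/2 library). AT3G51730 fell by 0.63 log2 units at 7 DAP (edgeR adjusted p = 0.0047), from 91.4 to 142 CPM in WT to 63.6 to 81.6 CPM in crwn1/2, although its region was lost. Without the filter on low counts that call ended (edgeR adjusted p = 0.0715).

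Among genes of kept regions the changes went both ways. SVP was at 3.01, 6.08, 5.58 and 5.09 CPM in WT and at 0.391, 1.22 and 1.24 CPM in crwn1/2 at 6 DAP. All crwn1/2 libraries were lower than all WT libraries, by 2.36 log2 units (SE 0.507, edgeR adjusted p = 0.00311). At 7 DAP the groups overlapped (log2 difference -0.30, edgeR adjusted p = 0.627). AGL92 was at 0.361, 0.365, 0 and 0.226 CPM in WT and at 1.27, 4.79 and 2.93 CPM in crwn1/2 at 6 DAP, higher in all 3, by 3.57 log2 units (SE 0.915, edgeR adjusted p = 0.0114) on 8 counts over the WT libraries. Without the 2nd crwn1/2 library the adjusted p was 0.0565, and at 7 DAP AGL92 did not pass the test (edgeR adjusted p = 0.165).

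AT5G25440, in the kept region chr5:8855251-8857800, had the largest rise at 6 DAP under the naming rule. It was at 0.241, 0.243, 0.130 and 0.339 CPM in WT and at 4.50, 9.37 and 8.53 CPM in crwn1/2, a rise of 4.88 log2 units (SE 0.727, edgeR adjusted p = 6.76e-05) on 8 counts over the WT libraries. AT1G67855, whose region chr1:25441801-25443000 was kept, fell on both days without overlap. It went from 7.10 to 16.9 CPM in WT to 0.799 to 2.93 CPM in crwn1/2 at 6 DAP (log2 difference -2.93, edgeR adjusted p = 0.000171) and from 11.03 to 23.9 CPM to 3.32 to 6.32 CPM at 7 DAP (-1.89, edgeR adjusted p = 0.000997).

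LHCB5 and the Rubisco genes RBCS1B, RBCS2B and RBCS3B lay in kept regions and showed no called change. LHCB5 spanned 910 to 1058 CPM in the WT and 608 to 842 CPM in the crwn1/2 libraries of 6 DAP, with no overlap (log2 difference -0.47, edgeR adjusted p = 0.0668), and 1247 to 1482 and 1002 to 1370 CPM at 7 DAP (-0.24, edgeR adjusted p = 0.254). RBCS3B spanned 67.2 to 99.4 CPM in the WT and 74.6 to 90.6 CPM in the crwn1/2 libraries of 6 DAP, and RBCS1B and RBCS2B were below 10 CPM in every library. The 3 are near-identical neighbours, so how reads were divided between them is uncertain. LHCB5 thus lay in a region kept in all 3 crwn1/2 endosperm lists while its transcript was abundant in the seed nuclei sorted for RNA.

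Genes of the longest kept regions passed the test on at most 1 day. PIP2E spanned 1.43 to 8.27 CPM in the WT and 9.68 to 15.95 CPM in the crwn1/2 libraries of 6 DAP (log2 difference 1.33, edgeR adjusted p = 0.0788) and fell by 1.46 at 7 DAP (edgeR adjusted p = 0.0197, up to 0.0559 without WT 3 or crwn1/2 5). SNC4 rose by 1.72 at 6 DAP (edgeR adjusted p = 0.0136, or 0.057 without the 3rd crwn1/2 library), from 0.973 to 1.92 CPM in WT to 2.93 to 5.77 CPM in crwn1/2. CYP706A5 fell by 2.71 at 7 DAP, from 0.669 to 2.35 CPM in WT to 0 to 0.376 CPM in crwn1/2 (edgeR adjusted p = 0.00622). AT1G22403, a non-coding RNA gene beside UGT85A1, rose by 1.39 at 7 DAP, from 9.13 to 38.3 CPM to 45.3 to 87.2 CPM (edgeR adjusted p = 0.000679). AT2G39020 rose by 0.51 at 7 DAP, from 30.6 to 39.7 CPM in WT to 44.7 to 63.8 CPM in crwn1/2 (edgeR adjusted p = 0.0166, or 0.0582 without the 4th WT library). AT4G12290 fell by 0.53 at 7 DAP with overlapping groups (edgeR adjusted p = 0.0317), a call that ended without WT 1 or 2 or crwn1/2 2, 3 or 5 (edgeR adjusted p up to 0.16), and with a replicate block or without the filter on low counts (0.186). CIPK1, RBP47C and RBP47C' did not pass the test on either day.

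Of the longest partly kept regions, the longest of all held ADT1, which spanned 30.2 to 48.9 CPM in the WT and 46.0 to 67.8 CPM in the crwn1/2 libraries of 7 DAP. The groups overlapped, and the rise of 0.55 log2 units (edgeR adjusted p = 0.0224) lost its call without WT 1 or 2 or crwn1/2 2 (edgeR adjusted p up to 0.0995). AT4G13630 fell by 0.71 at 7 DAP with overlapping groups (edgeR adjusted p = 0.0424), and this call ended in 7 of the 9 fits that left out a library, all but those without WT 3 or crwn1/2 2 (edgeR adjusted p up to 0.111), and with a replicate block or without the filter on low counts (0.229). IDD11 and UNE16 did not pass the test on either day.

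At 6 DAP 5.86% of tested genes in partly kept and 6.59% in kept regions fell, beside 6.15% of all genes tested. Of the 5 largest called falls then, among genes that averaged 1 CPM or more across the 20 libraries, partly kept regions held 3. Kept regions held the others, AT2G30840 and AT1G67855. Below that level, AT3G58410 of a kept region fell by 4.32 log2 units at 6 DAP (edgeR adjusted p = 0.0295), from 0.113 to 5.84 CPM in WT to 0 to 0.196 CPM in crwn1/2, with overlapping groups and 3 counts over the crwn1/2 libraries. That call ended without WT 2 or 3 or crwn1/2 2 or 3 (edgeR adjusted p up to 0.117). AT1G66940 was at 2.41 to 6.22 CPM in WT and at 0.196 to 0.355 CPM in crwn1/2 (log2 difference -4.02, SE 0.67, edgeR adjusted p = 0.000244), and AT5G38610 at 6.49 to 12.8 and 0.391 to 1.12 CPM (-3.77, edgeR adjusted p = 0.00214). COR15A, a cold-induced gene whose product protects chloroplast membranes, was at 1.09 to 6.10 CPM in WT and 0.0978 to 0.799 CPM in crwn1/2 (-3.34, SE 0.737, edgeR adjusted p = 0.00385). Its region chr2:17709151-17712000 was covered to 100%, 84.2% and 36.8% in crwn1/2 endosperm and to 5.26%, 78.9% and 42.1% in crwn1/2 leaf. For AT1G66940, AT5G38610 and COR15A the groups did not overlap.

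At 7 DAP the largest rises were of genes low in WT on that day. AT1G07690, in a partly kept region, was at 0.507, 0.134, 0.224 and 0.589 CPM in WT and at 7.52, 2.56, 3.12, 1.96 and 7.72 CPM in crwn1/2, a rise of 3.61 log2 units (SE 0.639, edgeR adjusted p = 0.000456). AT2G37540, in a kept region, was at 0.672 to 3.21 CPM in WT and 3.52 to 18.7 CPM in crwn1/2 (2.51, edgeR adjusted p = 0.00216). AT1G57780 rose by 3.55 (edgeR adjusted p = 0.00376), with the highest WT library at 0.336 and the lowest crwn1/2 library at 0.345 CPM, and AT5G65370 rose by 2.69 (edgeR adjusted p = 0.00691) with overlapping groups. Among the falls at 7 DAP, AT4G01410 went from 6.498 to 14.4 CPM in WT to 0.541 to 4.36 CPM in crwn1/2 (-2.15, edgeR adjusted p = 0.00381). AT5G43770 fell by 2.72 (edgeR adjusted p = 0.0049) with overlapping groups, and LOX2, a lipoxygenase of jasmonate synthesis in the 8550 bp kept region chr3:16521901-16530450, fell by 2.13 (edgeR adjusted p = 0.0223, up to 0.0749 without WT 3 or crwn1/2 5). Also called at 7 DAP, with overlapping groups, were AT1G54440 (log2 difference 0.53, edgeR adjusted p = 0.0294), AT5G38610 (-1.69, edgeR adjusted p = 0.0339) and AT2G42460 of a kept region (-2.08, edgeR adjusted p = 0.019). Their calls ended in 3, 6 and 1 of the 9 fits that left out a library. When the share of reads outside features entered the fit, 2 of the 23 genes described as called at 7 DAP still passed. These were AT1G07690 and AT2G37540 (edgeR adjusted p = 0.0151 and 0.0371).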

How the data were processed

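The authors' deposited H3K27me3 peak lists, 12 in number, have the layout of epic2 per the file headers, and SICER 0.0.52, Bowtie2 2.3.4.1, Trim Galore 0.6.7 and the build TAIR10 are named in the submitters' processing notes, with no role given. Each list covers 1 library, without pooling. Per the file headers, each peak carries a count of H3K27me3 reads, a p-value and FDR, a log2 enrichment over a control and a score, all the authors' own. The FDR of listed peaks reached at most 0.0499. The 12 columns of control counts, whose control no label names, were not used. Total read depth is unknown, and only the reads inside peaks are known.

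Peaks were laid on bins of 150 bp, which their edges follow, and coverage was read as base pairs of a region inside peaks. Members, gene lists and tests were chosen with earlier results of these data known. Genes were placed with the RefSeq table of TAIR10.1, whose nuclear chromosomes are those of TAIR10. The number of genes cut by a peak edge was lowest with no shift between files and table in 9 of 10 parts of the genome (each of the 5 chromosomes divided at its middle), and in the other it was 169, against 168 at a shift of 150 bp. All 140 listed genes matched. The pericentromere was set from protein-coding gene starts, where any annotated gene start had been planned.

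The deposited mRNA files hold whole-number read counts per gene and transposable element in the layout of HTSeq, and STAR 2.7.1a is named in the submitters' processing notes. Strand setting is not given in the sources used here, so overlapping and antisense genes are uncertain. Reads outside features, 4.05% to 5.92%, were left out. edgeR 4.0.16 in R 4.3.3 was run with TMM scaling, the filter for low counts (count minimum 10, total 15, which left 24696 of 63867 features) and 1 term per group over 20 libraries. Tests were two-sided, with Benjamini-Hochberg adjustment across every tested feature and a threshold of 0.05. Alternatives were RLE size factors, no filter, a replicate block, DESeq2 1.42.0, left-out libraries, other peak, length and coverage thresholds, and, added after seeing the data, a covariate. The region rule and the edgeR fit were tested on simulated data. No label says that libraries of a group came from separate plants, so p-values measure the spread between these libraries, which may be technical.

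Named genes have at least 50% of their span in a region and lie in the 10 longest regions (ties included), the 5 longest lost, or the 5 longest in all 3 crwn1/2 leaf lists, or are the 5 largest rises and 5 largest falls past the threshold on each day of genes averaging 1 CPM or more across the 20 libraries, or belong to the 9 gene lists. MicroRNA genes and the CRWN genes were chosen after their values were seen. CPM are counts scaled to 1e6 per adjusted library total.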

Additional observations from a re-analysis of the deposited data

Results flagged for a closer look

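Samples far from the others of their group were found in 3 of 184 groups of values looked at, 1.63%, where chance alone gives about 1 in 20. AT5G25440 was at 4.31 CPM in the 1st WT library at 7 DAP, with the others at 0.589 to 1.01 CPM. AT1G54440 was at 34.2 CPM in the 4th WT library at 6 DAP, with the others at 29.3 to 29.7 CPM. The summed embryo markers were at 54.2 CPM in the 3rd WT library at 6 DAP, with the others at 79.2 to 83.3 CPM.

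Of the 40 genes described, 7 had a genotype difference that differed between days by edgeR's test of the difference itself, adjusted over all features. Some of the 40 were named for a large called change on a given day, which favours such a difference. No share over all features is set beside this count, so it says nothing about the set. The log2 difference at 7 DAP minus that at 6 DAP was -3.44 for AT5G25440 (adjusted p = 0.0346), -5.07 for DREB26 (0.0466), 3.85 for AT1G66940 (0.00957), -2.79 for PIP2E (0.0214), -2.21 for SNC4 (0.0375), -1.24 for GMI1 (0.0199) and -0.81 for AT3G51730 (0.0474). For PIP2E the difference was 1.33 at 6 DAP and -1.46 at 7 DAP, and for DREB26, a transcription factor gene of the ERF family in the partly kept region chr1:7693501-7697700 (TAIR10), 3.799 and -1.27. The call of DREB26 at 6 DAP ended without WT 2, 3 or 4 or crwn1/2 2 (edgeR adjusted p up to 0.171).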

How the results depend on the processing

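Peaks of log2 enrichment 1 or more left 470 regions, with 51.1% covered in crwn1/2 endosperm, 118 kept, 252 partly kept, 100 lost, 6 in all and 133 in any crwn1/2 leaf list, and 243 by the rule in crwn1/2. Peaks at an FDR of 1e-05 or less gave 390 kept, 554 by the rule in crwn1/2 and a left-out difference of -34.1 points. The count in all crwn1/2 leaf lists was 19 at a minimum of 600 bp, 14 without bins within 300 bp of leaf peaks (346 in any list), 74 with any covered bin and 15 at 80% coverage, where 311 were kept and 513 lost. Any overlap of gene and region gave 86 genes higher and 66 lower at 6 DAP and 126 and 109 at 7 DAP. These came from 1247 tested genes, beside 671 in the main set, so the shares were 6.90%, 5.29%, 10.1% and 8.74%. Without the filter 128 of 925 tested were higher at 7 DAP, and DESeq2 called 92 of 854 lower at 7 DAP. The added covariate left 11 and 10 of 671 at 7 DAP. For these other fits no share over all genes is given, so the counts do not set these genes apart. The cause of these shifts was not tested.

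Without 1 library in turn, regions numbered 1977 to 2354 (a rule with fewer WT lists takes in more), coverage was 51.3% to 61.6% in endosperm and 8.10% to 13.2% in leaf, with a difference of 41.4 to 51.8 points, 568 to 882 kept, 517 to 1189 partly kept, 344 to 572 lost, 35 to 229 in all and 408 to 712 in any crwn1/2 leaf list, and 893 to 1450 by the rule in crwn1/2. Genes higher and lower were 34 to 50 and 19 to 40 at 6 DAP and 47 to 71 and 35 to 51 at 7 DAP. The other planned settings moved no count by over 1.5 times, and no direction reversed.

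Replicate numbers gave the mRNA libraries of 6 and 7 DAP no clear pairing (correlations of same-numbered deviations -0.0843 to 0.14), although some libraries matched their own number best. That check did not cover the peak lists. With a replicate block the coverage difference was 48.6 points (exact sign-flip p = 0.25) and 40 and 33 genes were called at 6 DAP and 58 and 35 at 7 DAP. Counting genes by a covered start was not run, since the gene table used here holds no strand. A peak absent from a shallow list shows no absence of the mark, and the part of depth in the kept and lost counts was not tested.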
